A study of Mus musculus with 9 samples.

Results

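The transcripts of the glutathione peroxidases were followed in mouse liver after β-CYP, with and without sodium selenite. The genes are Gpx1, Gpx2, Gpx3, Gpx4, Gpx7 and Gpx8, taken by their symbols from the deposited gene table, so 6 of its 25781 genes. The labels put 3 libraries in each of 3 groups of Swiss mice aged 10 to 12 weeks, all from liver tissue. Control mice carry no treatment in the labels. Mice of the β-CYP group received β-CYP at 40 mg/kg, and mice of the selenite group received the same β-CYP dose plus Na2SeO3 at 50 µg/kg. No group received selenite alone, and the labels give neither the route nor the time from dosing to sampling, nor do they spell out β-CYP. The study's subject is liver injury and selenium, and the comparisons ask what β-CYP did to these transcripts and how the livers that also received selenite differed. Whether each library is its own animal is not stated in the labels, and the p-values below therefore speak of the spread among the sequenced libraries, part or all of which may be technical.

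Glutathione peroxidases reduce hydrogen peroxide and lipid hydroperoxides to water and alcohols, and glutathione is the usual electron donor. In several of them the catalytic residue is selenocysteine, an amino acid that carries selenium and is inserted at a UGA codon that would otherwise end translation. When selenium is scarce, cells rank their selenoproteins: the mRNA of Gpx1 is known to be readily degraded at its UGA codon, whereas that of Gpx4 is known to be better preserved. Gpx1 is the abundant enzyme of the liver cytosol and mitochondria, Gpx4 acts on lipid hydroperoxides within membranes, Gpx3 is secreted into plasma, Gpx2 belongs to the gut epithelium, and Gpx7 and Gpx8 reside in the endoplasmic reticulum.

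The codon of the catalytic residue separates the members into 4 with selenocysteine and 2 with cysteine. It is given in capitals within 33 bases of coding sequence, 5′ to 3′ on the coding strand, from the GENCODE transcripts of GRCm38, because this codon is what ties the first 4 genes to selenium supply.
Gpx1: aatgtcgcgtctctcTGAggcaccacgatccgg
Gpx2: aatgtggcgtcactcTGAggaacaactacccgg
Gpx3: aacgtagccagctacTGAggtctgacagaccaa
Gpx4: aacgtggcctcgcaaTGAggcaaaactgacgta
Gpx7: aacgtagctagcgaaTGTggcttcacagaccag
Gpx8: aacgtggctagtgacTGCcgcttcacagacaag
The capitals are codon 47 of 201 in Gpx1, codon 40 of 190 in Gpx2, codon 73 of 226 in Gpx3 and codon 129 of 253 in the long form of Gpx4, each an in-frame TGA. In Gpx7 they are codon 56 of 186 and in Gpx8 codon 79 of 209, both cysteine codons. Within this window Gpx1 and Gpx2 shared 27 of 33 bases, and so did Gpx7 and Gpx8. Gpx3 shared 25 of 33 bases with Gpx7, which has cysteine, and 20 with Gpx4, which has selenocysteine.

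Libraries held 28630269 to 36029560 reads. Each deposited value is the log2 of 1 plus a read count that was scaled by a factor of its library. Undoing the log gives the scaled counts used below, which are comparable between libraries for one gene. Pairs of libraries of a group differed by a chi-square of 8.97 to 13.2 per degree of freedom over the genes, except the pairs with control replicate 2, at 182 and 201, so that library stood apart and no library was a copy of another. All 6 members passed the filter of a mean scaled count of at least 1, as did 20145 genes in all. Changes are differences of group means of log2(scaled count + 1) with their standard errors (SE) from limma, fitted to all 9 libraries, with p-values adjusted by the Benjamini-Hochberg method over the 20145 genes and called under 0.05. Fewer cells of a type and less RNA per cell cannot be told apart in such bulk libraries.

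Levels were compared between genes per kilobase of annotated exon. That length joins the exons of all annotated transcripts of a gene and can exceed that of the transcripts present, so the comparison is approximate. On this scale Gpx1 was the most abundant member in control liver at 31926 ± 3224 scaled counts (SD, n = 3). Gpx4 followed at 3060 ± 19.0 and Gpx3 at 105 ± 17.6. Gpx7 stood at 30.3 ± 19.0 and Gpx8 at 15.4 ± 0.0894, and these neighbours in the order did not differ beyond the spread of Gpx7, whose lowest control library was at 15.1. Gpx2 was last at 0.550 ± 0.491. In β-CYP liver Gpx8 stood at 13.5 ± 4.98 and Gpx7 at 11.6 ± 0.300, so they changed places within the spread of Gpx8. In the selenite group the order was that of control by group means, but Gpx1 ranged from 2715 to 24444 per kilobase and its lowest library lay close to the level of Gpx4, 2591 to 2642. Before division by length that library, at 3912 scaled counts, lay below Gpx4, at 4466 to 4556. The plot of scaled counts by library shows this single low Gpx1 value.

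**Figure D1:**
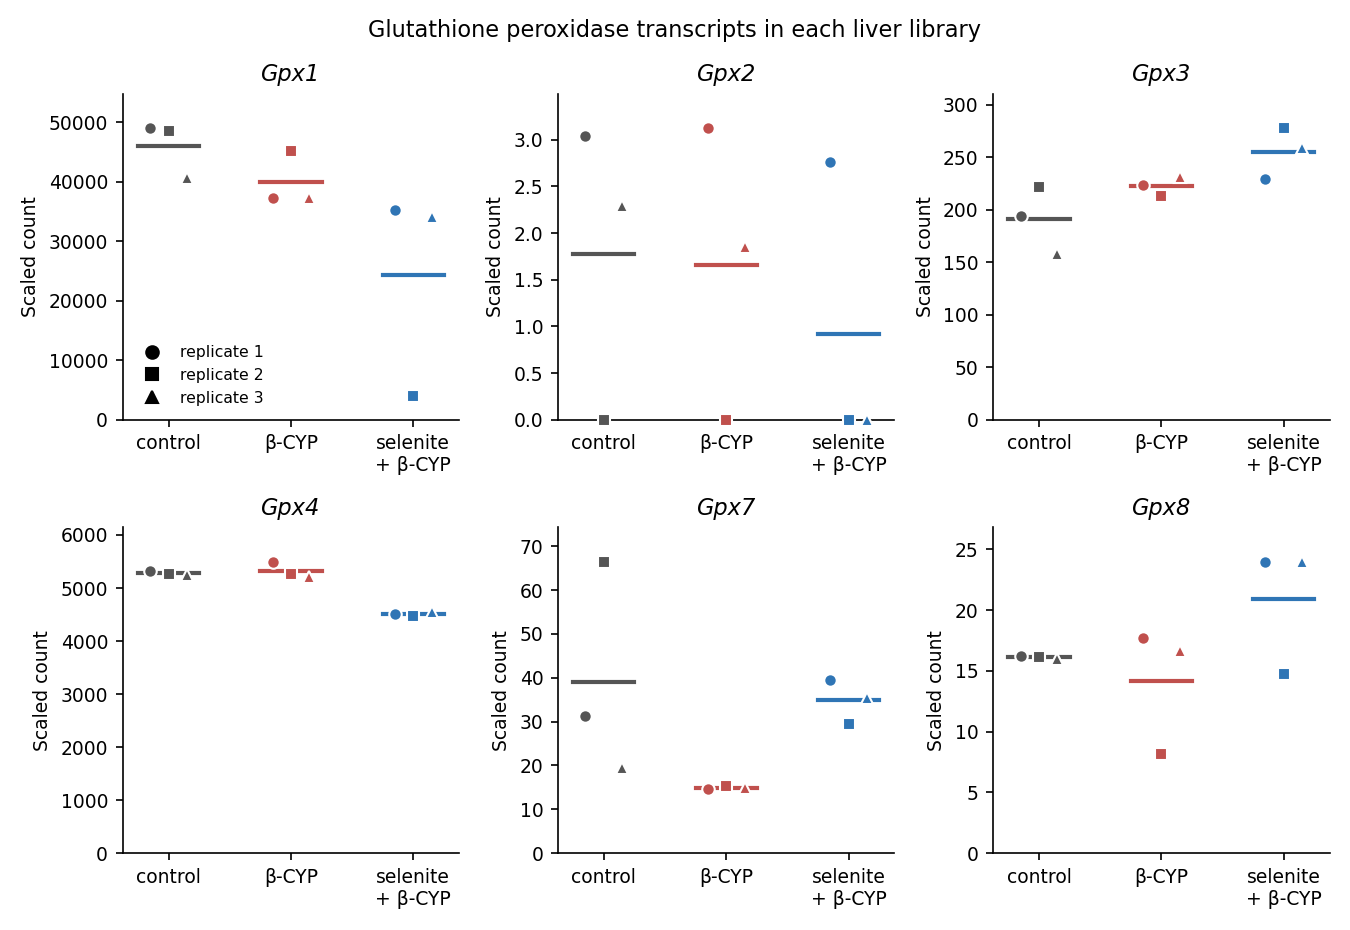
Scaled counts (y axis, from 0, a different range in each panel) of the 6 glutathione peroxidase transcripts in each of the 9 libraries, by group. Symbols mark replicate numbers and horizontal lines are group means. Gpx4 in selenite libraries lay at 4466 to 4556, under every other library (5202 to 5492), and Gpx1 in selenite replicate 2 lay at 3912, while the other 8 libraries held 34018 to 48935.

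In β-CYP liver compared with control, no member passed the test (0 of 6). Across all genes tested, 7.72% passed as higher and 8.58% as lower, and the groups did not overlap for 31.6%. At an unadjusted p under 0.05 only Gpx7 was counted, 1 of 6, both by limma on the log2 values and by limma's voom weights on the recovered reads. Both fits used the same reads. The share of all genes under that unadjusted threshold was not computed, so no result about the family is drawn from this count. Gpx7 was also the only member whose β-CYP and control libraries did not overlap.

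Adding selenite to β-CYP came with a fall in Gpx4, the only member called (1 of 6). Of all genes tested, 11.6% passed as higher and 12.3% as lower in this comparison, and 37.8% had groups that did not overlap. Among the members the groups did not overlap for Gpx1, Gpx4 and Gpx7, 3 of 6. Compared with control, the selenite group had lower Gpx4 and higher Gpx3, 2 of 6, beside 14.4% of all genes called higher and 14.5% called lower. Here the groups did not overlap for Gpx1, Gpx3 and Gpx4, 3 of 6, against 41.8% of all genes. The comparisons share libraries, so their counts are not independent of each other.

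**Figure D2:**
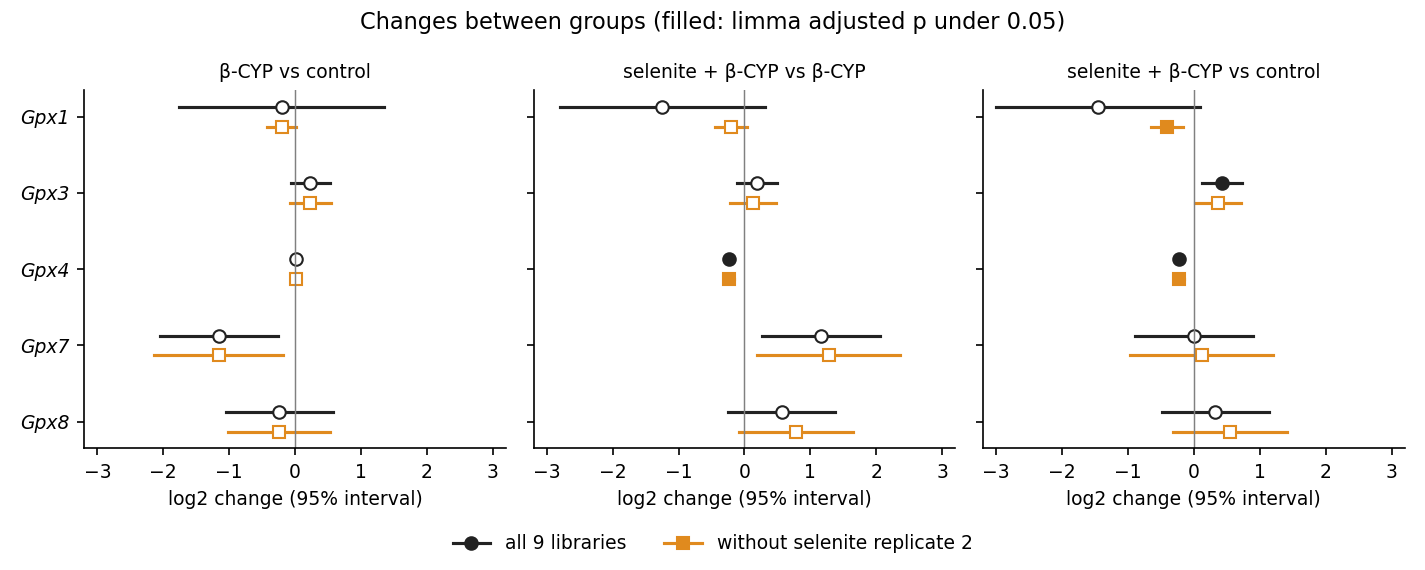
log2 change (x axis) with its 95% interval for 5 members in the 3 comparisons, from limma on all 9 libraries (circles) and without selenite replicate 2 (squares). Filled symbols have an adjusted p under 0.05. Gpx2 is left out because its reads were at or under 3 in every library. Gpx4 was called lower in both comparisons with selenite with and without that library, Gpx3 only with it and Gpx1, against control, only without it.

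Gpx1, the main peroxidase of liver cytosol, had 48935, 48432 and 40648 scaled counts in control, and 37289, 45139 and 37321 in β-CYP liver. In the selenite group it had 35223, 3912 and 34018. Control and β-CYP libraries overlapped, whereas the selenite libraries all lay below both other groups, replicate 2 far below the rest.

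The value of replicate 2 rests on 4241 reads, so counting error was small, and it was 8.70-fold below the lowest of the other 8 libraries. Those 8 differed from each other by at most 1.44-fold. Among the 369 genes with 10000 or more scaled counts on average, a library lay at least 8-fold below both others of its group in 2 cases, Gpx1 in selenite replicate 2 and the predicted gene Gm21320 in selenite replicate 1. Among the 10520 genes with a mean of at least 100, each library had 2 to 7 such genes. The residual SD of Gpx1 in the model was 1.06 on the log2 scale. The median was 0.0266 over 156 genes of like abundance, of which 1 had a larger SD.

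With all 9 libraries, the log2 change of Gpx1 was -0.21 ± 0.69 (SE) for β-CYP against control, -1.25 ± 0.69 for selenite against β-CYP and -1.45 ± 0.69 for selenite against control. The limma adjusted p-values were 0.900, 0.245 and 0.154, so none passed. The 95% interval of the last change ran from -3.01 to 0.099, which leaves the size of any change poorly defined. Without selenite replicate 2 the means were 34621 ± 852 (SD, n = 2) in the selenite group, 39916 ± 4523 in the β-CYP group and 46005 ± 4646 in control (n = 3 each). Gpx1 was then 1.32-fold lower in selenite than in control liver, a log2 change of -0.41 ± 0.11 with a limma adjusted p of 0.0276. The changes of -0.20 ± 0.11 against β-CYP (limma adjusted p = 0.256) and of -0.21 ± 0.094 for β-CYP against control (0.209) did not pass. It was the only one of 20 alternatives in which a Gpx1 change passed.

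The genes adjacent to Gpx1 did not share the low value. Rhoa, a small GTPase gene on one side, had 3404 scaled counts in selenite replicate 2 and 3297 to 3776 in the other 8 libraries. Usp4, a deubiquitinase gene on the other side, had 2379, within the 1922 to 2729 of the others. The transcripts whose pattern over the 9 libraries was most like that of Gpx1 were Gk, which encodes glycerol kinase (Pearson r = 0.987), Prdx1, a peroxiredoxin (0.977), and Tm2d2 (0.973). Their likeness came with a low value in the same library. Gk had 1100 scaled counts there and 1810 to 2020 elsewhere, Prdx1 had 16018 against 22105 to 24765, and Tm2d2 had 663 against 1086 to 1243. Over the other 8 libraries, a choice made after seeing the data, Zfpm1 (r = 0.981), Gm6681 (0.948) and Nat8b-ps (0.945) came first instead, of which Gm6681 had only 3.68 to 7.08 scaled counts. Zfpm1 followed Gpx1 in having 1809 and 1780 scaled counts in control replicates 1 and 2 but 1071 in replicate 3. Erythroid cells also make Gpx1, and the summed scaled counts of 7 erythroid markers were 29037 to 29307 in control, between 24807 and 25817 in β-CYP liver, and 21417 to 22019 in selenite liver, selenite replicate 2 included. Their part in the Gpx1 levels was not tested.

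**Figure D3:**
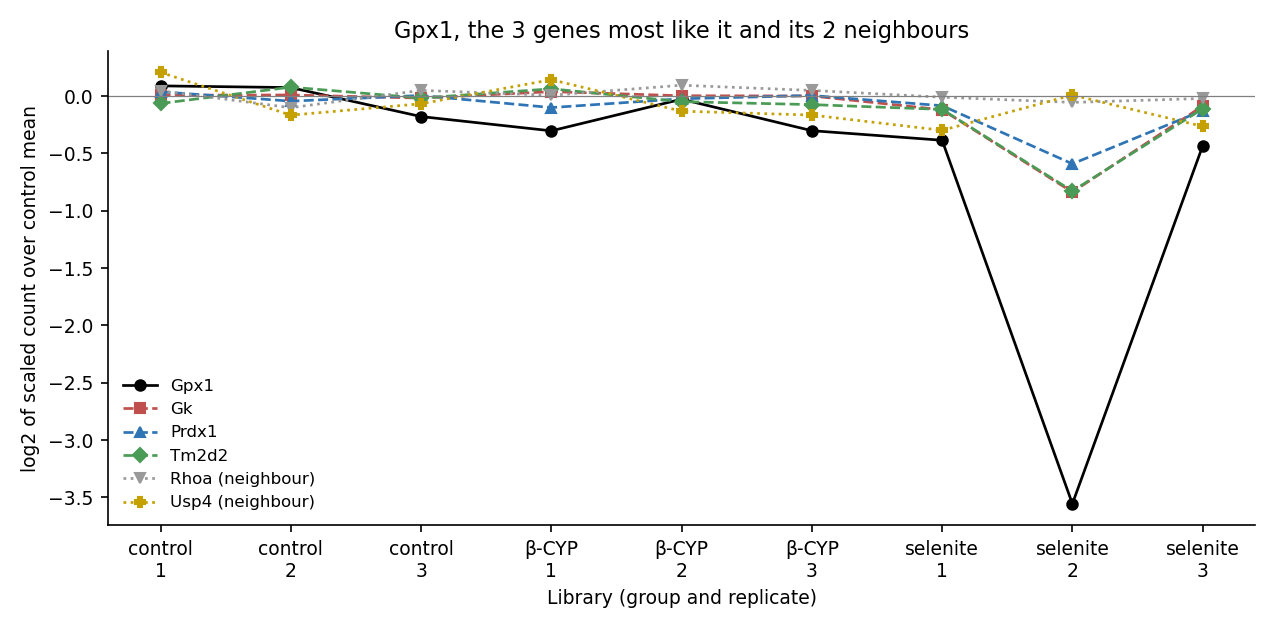
log2 of the scaled count over the control mean (y axis) in each library (x axis) for Gpx1, the 3 genes most like it over 9 libraries (dashed) and its 2 neighbouring genes (dotted). Gpx1, Gk, Prdx1 and Tm2d2 are lowest in selenite replicate 2, where Rhoa and Usp4 are not.

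Gpx4, the enzyme that reduces lipid hydroperoxides in membranes and guards against ferroptosis, had the steadiest transcript of the family. It had 5314, 5262 and 5253 scaled counts in control and 5492, 5273 and 5202 in β-CYP liver, which overlapped. The selenite libraries had 4509, 4466 and 4556, all below every other library. Gpx4 fell by 0.24 ± 0.029 on the log2 scale from β-CYP to selenite liver, 1.18-fold, with a limma adjusted p of 2.2e-04. Against control it fell by 0.23 ± 0.029, 1.17-fold (limma adjusted p = 2.5e-04). The change from control to β-CYP was 0.012 ± 0.029 (limma adjusted p = 0.844).

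The residual SD of Gpx4 was 0.025 on the log2 scale, under the 0.048 median of 1122 genes of like abundance, so its small change exceeded the spread between replicates. Without selenite replicate 2 the changes were -0.23 and -0.22 (limma adjusted p = 0.00152 and 0.00159), and without control replicate 2 they were -0.24 and -0.23 (6.1e-04 and 0.00138). The fall passed in 19 of 20 alternatives in both comparisons. The exception was scaling to equal totals, under which it was -0.11 (limma adjusted p = 0.169) against β-CYP and -0.090 (0.241) against control. That scaling moved the median change of all genes to 0.137 and 0.153. It also turned 2337 rises and 2468 falls into 3199 and 1324 against β-CYP, and 2908 and 2915 into 3947 and 1757 against control. Relative to that median Gpx4 lay at -0.25 and -0.24, compared with -0.26 and -0.25 relative to the median of the authors' scaling. Quantile normalization gave smaller changes that passed, -0.11 (limma adjusted p = 0.0217) against β-CYP and -0.10 (0.0288) against control. Under it Gpx4 lay at -0.095 and -0.089 relative to the median of all genes, so the size of the fall depended on the scaling.

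The transcripts most like Gpx4 over the 9 libraries were Gm13573 (Pearson r = 0.992), Pcbd1, which encodes a pterin dehydratase that also acts as a coactivator (0.991), and Tmem8 (0.990). Each was lower in selenite libraries than in all others. Gm13573 had 74.7 to 88.2 scaled counts in selenite liver and 423 to 562 elsewhere. Pcbd1 had 3815 to 3961 against 5100 to 5387, and Tmem8 had 811 to 912 against 1214 to 1314. RefSeq lists pseudogenes of Gpx4, and the sources used here do not give how reads shared with them were counted.

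Cell-type markers moved with the selenite group as well. Hepatocyte markers, 8 of 9 listed genes, had sums of 3406800 to 3547200 scaled counts in control, between 4305700 and 4421500 in β-CYP liver, and 3916400 to 3997200 in selenite libraries, so the labelled tissue was borne out in each group. Alb was the largest part of each sum, and the list went both ways: from control to selenite liver 4 of 8 rose and 2 fell. Alb had 2083200 to 2168300 scaled counts in control and 1935700 to 1963400 in selenite liver. Fga had 201740 to 209050 and 524270 to 532030. The 8 pancreatic acinar markers had sums of 5.03 to 19.2 in control and 7.28 to 22.2 in β-CYP liver, with Cela3b, Cpa1, Cpb1, Pnlip and Prss2 at 0 in all these libraries. In the selenite libraries they had sums of 26383 to 27374, and all 8 rose. Spermatid markers, whose cells are rich in Gpx4, had sums of 296 to 320 in control, between 2.77 and 8.32 in β-CYP liver, and 0 to 4.60 in selenite libraries. Neutrophil markers had sums of 163 to 191 scaled counts in control, between 521 and 604 in β-CYP liver, and 760 to 867 with selenite, and 7 of 9 tested rose from control to selenite liver. Kupffer cell and macrophage markers were at 11659 to 11961, 11519 to 11596 and 13917 to 14075 in the same order of groups, and 5 of 8 rose from control to selenite liver. The cholangiocyte list was carried by Spp1, at 2143 to 2302, 6291 to 6598 and 1677 to 1783, with its other 5 genes at 133 or less, and 1 of 6 rose and 1 fell from control to selenite liver. Markers of sinusoidal endothelium went both ways in that comparison, with 1 of 7 rising and 3 falling: Lyve1 was at 269 to 278 in control and 510 to 545 in selenite libraries, and Fcgr2b at 1815 to 1874 and 1016 to 1363. The sums over all 7 were 10255 to 10397 and 9471 to 9479, and 9763 to 9922 in β-CYP liver. The lymphocyte markers were at 39.3 to 53.6, 16.3 to 37.0 and 75.5 to 97.7 in the 3 groups. The part of these markers in the Gpx4 fall was not tested.

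Gpx3, the plasma glutathione peroxidase, had 194, 221 and 158 scaled counts in control, 224, 213 and 231 in β-CYP and 229, 278 and 259 in selenite liver. Each selenite library lay above each control library, and the β-CYP libraries overlapped both. Gpx3 rose by 0.42 ± 0.13 on the log2 scale from control to selenite liver, 1.34-fold, with a limma adjusted p of 0.0389. From control to β-CYP the change was 0.23 ± 0.13 (limma adjusted p = 0.303), and from β-CYP to selenite 0.19 ± 0.13 (0.364).

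The rise of Gpx3 was close to the threshold and passed in 9 of 20 alternatives, with adjusted p-values of 0.00809 to 0.129 over them. Of the 9 fits that left out 1 library it passed in 2, those without control replicate 2 and without selenite replicate 1. The change was 0.36 ± 0.15 (limma adjusted p = 0.129) without selenite replicate 2, 0.29 ± 0.12 (0.108) without control replicate 3, 0.41 ± 0.16 (0.0990) without selenite replicate 3 and 0.44 ± 0.16 (0.0738) without control replicate 1. Without any 1 of the β-CYP libraries it was 0.42 with limma adjusted p-values of 0.0527 to 0.0583, and it was 0.54 ± 0.13 (0.0170) without control replicate 2. Markers of adipocytes, which can also make Gpx3, had sums of 277 to 355 scaled counts in control, between 834 and 867 in β-CYP liver, and 702 to 737 in selenite libraries. Most of each sum was Fabp4, which other cells express too (233 to 320, 828 to 848 and 655 to 702), and Adipoq, Plin1 and Retn were at 0 in every β-CYP library. Markers of kidney tubules, a main source of plasma Gpx3, had sums of 3.02 to 10.3, 8.32 to 13.3 and 1.92 to 6.46 in the 3 groups, over the 3 of 6 listed genes that the table holds. The part of either in the Gpx3 rise was not tested. The transcripts most like Gpx3 were Ace, which encodes angiotensin-converting enzyme (Pearson r = 0.979), the phosphatase gene Ptpn7 (0.974) and Mfsd13a (0.972). Ace had 13.7 to 59.4 scaled counts in control, between 50.0 and 71.2 in β-CYP liver, and 74.6 to 118 in selenite liver.

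Gpx2, the gut form, was barely detected. Control libraries held 3, 0 and 2 reads of it, β-CYP libraries 3, 0 and 2, and selenite libraries 3, 0 and 0. A count of 0 allows up to 3 reads, or 2.76 to 3.43 scaled counts over the 9 libraries, so no fold is given, and a difference between groups was not detectable at this depth. Markers of intestinal epithelium did not move together: from control to selenite liver 2 of 5 tested rose and 1 fell. Fabp2, which liver also expresses, made up most of their sum, with 1729 to 1797 scaled counts in control, between 1803 and 1852 in β-CYP liver, and 1089 to 1148 with selenite. Tff3 had 0 to 13.7 in control and 53.5 to 79.2 in selenite libraries. The mucin gene Muc2 was at 0 in all control and β-CYP libraries. The Gpx2 locus overlaps Fntb on the opposite strand, and the sources used here do not say whether counting used strand. Fntb, the farnesyltransferase subunit gene, had 140 to 168 scaled counts in control and β-CYP libraries and 242 to 272 in selenite libraries, so few or none of its reads were assigned to Gpx2.

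Gpx7 and Gpx8 encode the cysteine peroxidases of the endoplasmic reticulum, which pass oxidising power from peroxide to protein disulfide isomerases. Gpx7 had 31.4, 66.4 and 19.4 scaled counts in control (31, 66 and 17 reads), 14.6, 15.3 and 14.8 in β-CYP (14, 15 and 16 reads) and 39.6, 29.5 and 35.5 in selenite liver (43, 32 and 37 reads). The β-CYP libraries were the lowest of the 9 and close to each other, and the selenite libraries lay within the control range. The control libraries varied the most, with a coefficient of variation of 62.5%, compared with 16.2% for counting error. That of the β-CYP libraries was 2.60%, under the 25.8% of counting error, so their closeness does not measure precision.

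The log2 change of Gpx7 was -1.16 ± 0.40 from control to β-CYP (limma adjusted p = 0.0823, 95% interval -2.05 to -0.26) and 1.16 ± 0.40 from β-CYP to selenite (0.0628, 0.27 to 2.06). Neither passed. The selenite and control means differed by 0.0061 ± 0.40 (limma adjusted p = 0.995). Leaving out control replicate 2 or 3 changed these calls. Without control replicate 2, the highest, the change with selenite passed (limma adjusted p = 0.0163) and that with β-CYP was -0.69 ± 0.31 (0.200). Without control replicate 3, the lowest, both passed, at 1.16 ± 0.31 (0.0281) and -1.56 ± 0.35 (0.0207). With only the groups compared in the fit, the change with selenite was 1.16 ± 0.26 (limma adjusted p = 0.0146), and with equal totals it was 1.29 ± 0.38 (0.0374).

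Gpx8 had 16.2, 16.1 and 16.0 scaled counts in control (16, 16 and 14 reads), 17.7, 8.17 and 16.6 in β-CYP (17, 8 and 18 reads) and 23.9, 14.8 and 24.0 in selenite liver (26, 16 and 25 reads). The groups overlapped in all 3 comparisons. In scaled counts 1 library in each treated group lay below the controls, but the selenite one, replicate 2, had 16 reads, within the 14 to 16 of control. The coefficient of variation of the controls, 0.582%, was under the 25.5% of counting error, so their closeness does not measure precision. The log2 change of Gpx8 was -0.24 ± 0.36 from control to β-CYP (limma adjusted p = 0.733), 0.57 ± 0.36 from β-CYP to selenite (0.319) and 0.32 ± 0.36 from control to selenite (0.561). Gpx8 overlaps Cdc20b on the opposite strand, so reads of the gene pair may not be separable. Cdc20b is not among the deposited genes, so its level could not be set beside that of Gpx8. Fibroblast-like cells express both endoplasmic reticulum forms, and 8 markers of stellate cells and fibroblasts had sums of 8535 to 8706 scaled counts in control, between 9291 and 9743 in β-CYP liver, and 9888 to 10242 in selenite libraries. Of these 8 markers, 3 rose and none fell from control to β-CYP liver. From β-CYP to selenite liver 3 rose and 1 fell, and from control to selenite liver 6 rose and none fell. Markers of pancreatic acinar cells, which are rich in endoplasmic reticulum, were high only in the selenite libraries, as given above. The part of either in the Gpx7 and Gpx8 values was not tested.

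Other genes of the pathways around the members were counted from lists for selenoproteins, selenocysteine synthesis, glutathione supply, peroxide removal, oxidative folding and lipid peroxidation. The counts of rises and falls stand beside the shares of all tested genes called: 7.72% higher and 8.58% lower with β-CYP, 11.6% and 12.3% for selenite against β-CYP, and 14.4% and 14.5% for selenite against control. Medians are of log2 changes, beside medians over all genes of -0.0013 for β-CYP against control, 0.017 for selenite against β-CYP and 0.027 for selenite against control.

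Among 19 other selenoprotein genes tested of 20 listed, 3 rose and 8 fell with selenite on top of β-CYP (median -0.059), a comparison in which 11.6% of all genes rose and 12.3% fell. The same numbers rose and fell against control (median -0.20), and 3 rose and 2 fell with β-CYP alone (median -0.026). The methionine sulfoxide reductase Msrb1 had 9575 ± 168 scaled counts in control, 11913 ± 278 in β-CYP and 7339 ± 57.4 in selenite liver (SD, n = 3). Its log2 change of -0.70 ± 0.026 with selenite (limma adjusted p = 5.1e-08) was the lowest among the called members of the list. Selenow fell by 0.59 ± 0.035 and the mitochondrial thioredoxin reductase Txnrd2 by 0.39 ± 0.077. The 3 that rose, Selenon (0.94 ± 0.17), Selenok (0.52 ± 0.059) and Selenos (0.38 ± 0.056), encode membrane proteins of the endoplasmic reticulum. The acinar markers given above rose in the same comparison, and their part in these rises was not tested. Gpx4 lay between Selenof (-0.22 ± 0.040) and the deiodinase Dio1 (-0.30 ± 0.035). With equal totals, 4 rose and 4 fell against β-CYP, 3 and 5 against control, and 1 and 0 with β-CYP. Without control replicate 1 or 3 the count with β-CYP also changed by over 1.5 times, its falls ranging from 0 to 2 and its rises staying at 3 when libraries were left out in turn.

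**Figure D4:**
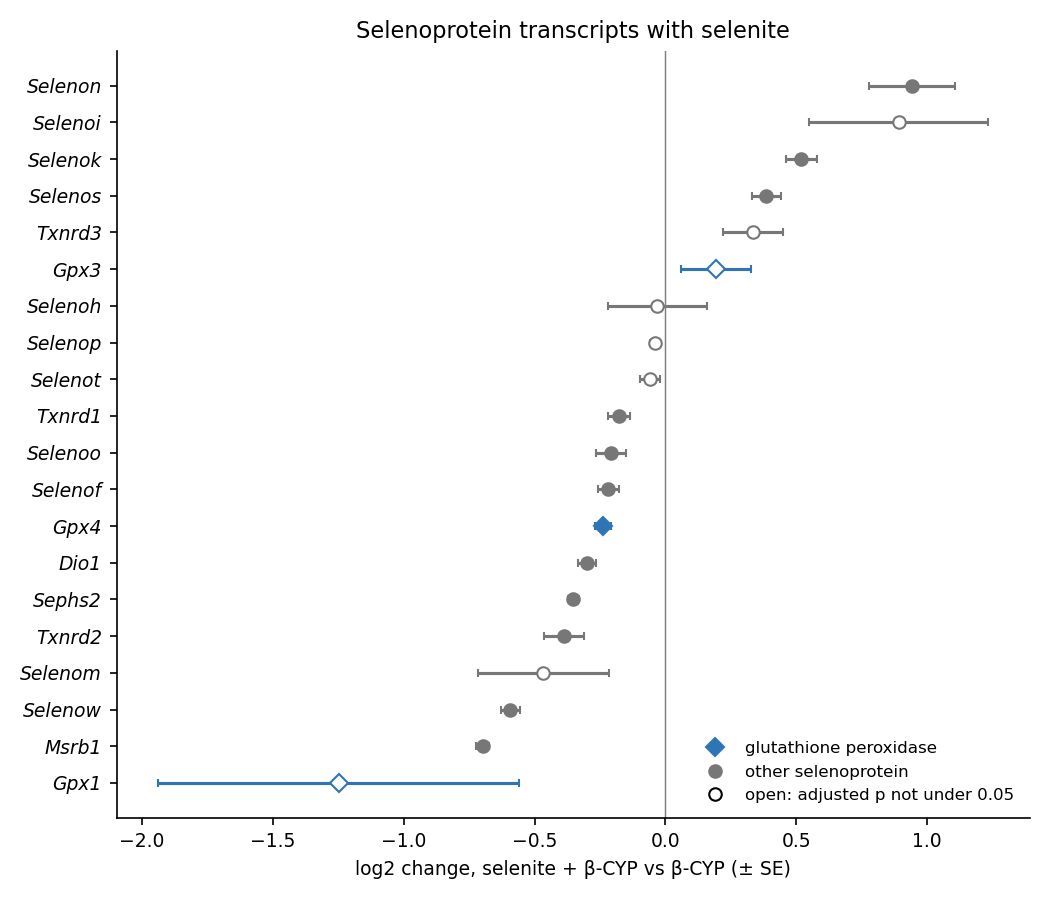
log2 change from β-CYP to selenite plus β-CYP liver (x axis, bars are ± SE) for 17 other selenoprotein genes (grey circles) and for Gpx1, Gpx3 and Gpx4 (blue diamonds), ordered by size. Filled symbols have an adjusted p under 0.05, and Gpx2, Dio3 and Selenov, with a mean of at most 3 scaled counts in both groups, are left out. Gpx4 sits among 8 other selenoprotein transcripts that fell, and Gpx1 has the widest bar of the peroxidases, with an SE of 0.69 that was 0.11 without selenite replicate 2.

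Of 12 genes tested for making and inserting selenocysteine, 1 fell with β-CYP, the kinase Pstk (-0.72 ± 0.15, limma adjusted p = 0.0101). With selenite on top of β-CYP, 2 rose and 2 fell (median 0.18). The rises were Secisbp2l (0.28 ± 0.045), a relative of the protein that binds the selenocysteine insertion element, and Eif4a3 (0.23 ± 0.052). The falls were Rpl30 (-0.26 ± 0.052) and the selenocysteine lyase Scly (-0.18 ± 0.039). Against control 3 rose and 3 fell (median -0.022), among them Eif4a3 (0.28 ± 0.052) and Pstk (-0.51 ± 0.15). The fall of Pstk against control did not pass in 7 of 20 alternatives, which included equal totals (limma adjusted p = 0.111) and leaving out any of the control libraries. With equal totals neither selenite comparison had a fall, and 3 and 4 rose. When libraries were left out in turn, the count against control ran from 2 to 3 rises and from 1 to 3 falls, and it moved by over 1.5 times without control replicate 1 or 2, β-CYP replicate 3 or selenite replicate 1.

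Glutathione is the substrate of the selenium-dependent members, and 18 genes of its supply and reduction were tested. With β-CYP, 3 rose and 3 fell (median -0.046). Chac1, which breaks glutathione down, rose from 118 ± 30.6 to 296 ± 6.97 scaled counts (log2 change 1.35 ± 0.17, limma adjusted p = 4.9e-04), Oplah rose by 0.59 ± 0.055 and the NADPH-producing Me1 fell by 0.78 ± 0.16. With selenite on top of β-CYP, 1 rose and 6 fell (median 0.012). Cbs, which makes the cysteine precursor cystathionine, fell from 14848 ± 222 to 6453 ± 109 scaled counts (-1.20 ± 0.028, limma adjusted p = 2.8e-09). Chac1 fell by 1.20 ± 0.17 and Cth, the next enzyme after Cbs, by 0.69 ± 0.11. Glutaredoxin, Glrx, rose by 0.34 ± 0.039. Against control 3 rose and 6 fell (median -0.13). With equal totals 2 rose and 1 fell with β-CYP, where the count also moved by over 1.5 times without control replicate 1 or β-CYP replicate 2, with 1 to 4 falls when libraries were left out in turn.

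Of 13 other enzymes that remove peroxide and superoxide, 1 rose and 7 fell with selenite against β-CYP, where 12.3% of all genes fell (median -0.23), 1 rose and 8 fell against control, where 14.5% of all genes fell (median -0.23), and 2 rose and 3 fell with β-CYP alone (median -0.039). Catalase, Cat, had 113530 ± 1385 scaled counts in control, 100090 ± 1339 in β-CYP and 68404 ± 1032 in selenite liver. Prdx6, a peroxiredoxin that like Gpx4 acts on phospholipid hydroperoxides, fell by 0.57 ± 0.089 with selenite on top of β-CYP, and Prdx4 by 0.38 ± 0.059. The sulfiredoxin Srxn1 rose by 1.06 ± 0.13. With equal totals the falls were 4 and 3 in the selenite comparisons, and with β-CYP 2 rose and 1 fell. The count with β-CYP moved by over 1.5 times without control replicate 1 or β-CYP replicate 2, with 1 to 3 falls when libraries were left out in turn.

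Genes of oxidative folding in the endoplasmic reticulum, where Gpx7 and Gpx8 act, went down with β-CYP in 4 of 13 and up in 1 (median -0.074), and with selenite on top of it 8 rose and 1 fell (median 0.17). Pdia4, a disulfide isomerase, had 9708 ± 24.6 scaled counts in control, 5976 ± 123 in β-CYP and 11470 ± 147 in selenite liver. Its log2 changes were -0.70 ± 0.024 and 0.94 ± 0.024 (limma adjusted p = 5.1e-08 and 4.3e-09). The oxidase Ero1lb fell by 1.01 ± 0.047 with β-CYP and rose by 0.52 ± 0.047 with selenite. Txndc5 rose by 0.86 ± 0.26 although its groups overlapped, and it did not pass in 9 of 20 alternatives. P4hb, the only fall, fell by 0.051 ± 0.016 with selenite, a sign that turned with equal totals and quantile normalization. It did not pass in 12 of 20 alternatives. Against control 4 rose and 1 fell (median 0.067), with 2 to 4 rises when libraries were left out in turn, fewest without control replicate 1 or selenite replicate 3. The acinar markers given above rose in the same comparisons, and their part in these rises was not tested.

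Of 12 genes tested for lipid peroxidation and ferroptosis, the setting in which Gpx4 is best known, 4 rose and 1 fell with β-CYP (median 0.056). Heme oxygenase, Hmox1, rose by 0.89 ± 0.071, Aifm2, which encodes the ferroptosis suppressor that works beside Gpx4, by 0.47 ± 0.053 and Lpcat3 by 0.27 ± 0.045. The only fall was Gch1, at -0.33 ± 0.059. With selenite on top of β-CYP none rose and 5 fell (median -0.12). The transferrin receptor Tfrc fell from 920 ± 58.8 to 407 ± 12.2 scaled counts (-1.17 ± 0.064, limma adjusted p = 8.1e-07), Lpcat3 fell by 0.42 ± 0.045 and Aifm2 by 0.35 ± 0.053. Against control 2 rose and 4 fell (median -0.14). With equal totals 2 fell in each selenite comparison, and 0 and 3 rose.

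**Figure D5:**
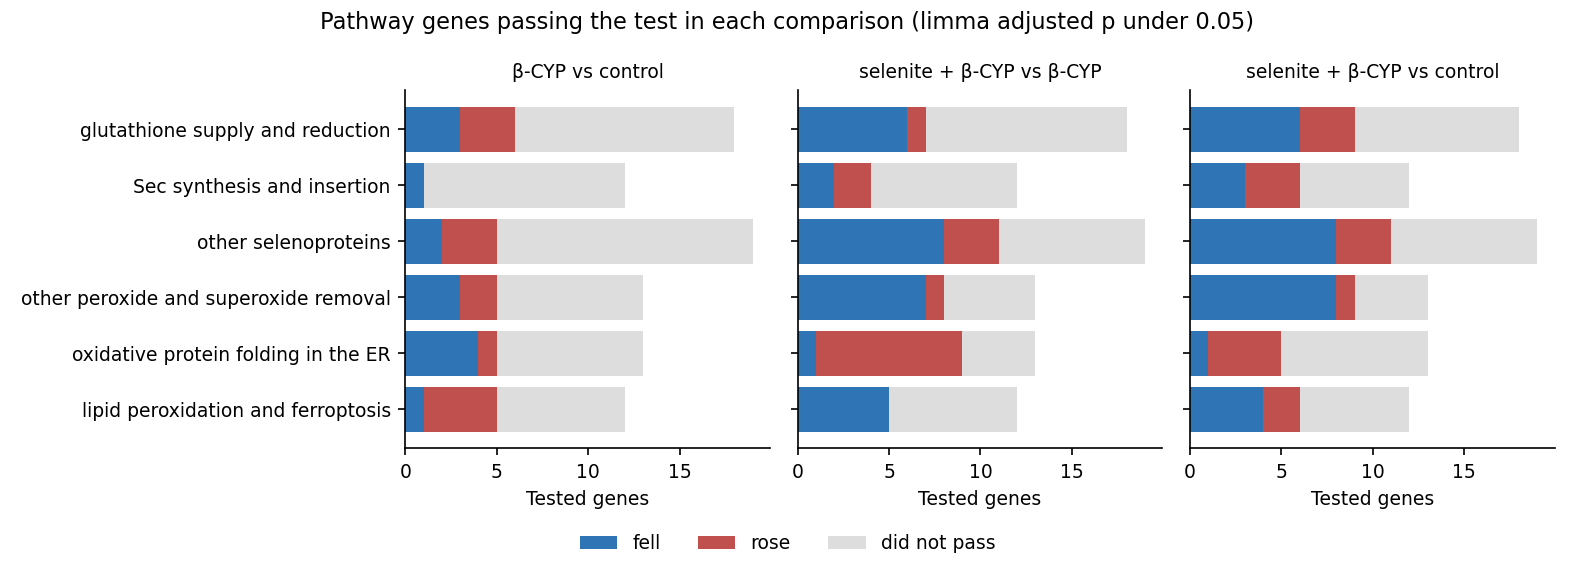
Number of tested genes (x axis) of each pathway list that fell (blue), rose (red) or did not pass (grey) by limma at an adjusted p under 0.05, in the 3 comparisons. Folding genes of the endoplasmic reticulum changed from 4 falls and 1 rise with β-CYP to 1 fall and 8 rises with selenite, and the other selenoproteins had 8 falls in both selenite comparisons.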

How the data were processed

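RNA of 9 liver libraries was sequenced. Per the labels' protocols, Trizol and a TruSeq kit were used, the library protocol names BGISEQ500, and the series' design text names another instrument. The authors deposited 1 table of log2 values for 25781 genes. The submitters' processing notes name HISAT, Cufflinks and the build mm9, without versions. The deposited log2 values equal log2 of a count over a median-of-ratios factor, plus 1: whole reads were recovered, within 0.02, for 100% of values in 9 of 9 libraries. The sources used here give no rule on strand or multi-mapped reads.

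Tests used limma 3.58.1 in R 4.3.3 with an intensity trend, 1 model of 3 group means on log2(scaled count + 1), a minimum mean of 1 and two-sided p-values. The fit was also run on simulated counts, with the same dispersion for all genes and no changes placed in the lowest genes. That run does not cover a library that stands apart or a gene as low as Gpx2. Fold changes on this scale understate those of low genes. Because the reference is GRCm38, it gave only names, neighbours, exon lengths and coding sequence, and no positions are printed. The members and lists were chosen with earlier results of these data known. Named genes are the members, up to 3 largest rises and falls of each list among passing genes, used as examples in each comparison, the 3 transcripts with the highest Pearson r to each member with a mean of at least 100, and neighbouring genes. Selenof and Dio1 were named after their values were seen. A marker gene that is withheld for evaluation is not reported here and was left out of its list.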

Additional observations from a re-analysis of the deposited data

How the results depend on the processing

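The count of glutathione peroxidases called was 0 for β-CYP against control in 19 of 20 alternatives and ran from 0 to 1 when libraries were left out in turn, the 1 being Gpx7 without control replicate 3. For selenite against β-CYP it was 2 rather than 1 with a minimum mean of 10, with only the groups compared in the fit and with robust empirical Bayes, Gpx7 joining Gpx4, and 1 to 2 when libraries were left out. With equal totals it stayed at 1, but the gene was Gpx7 (limma adjusted p = 0.0374) and not Gpx4 (0.169). For selenite against control it was 1 rather than 2 with equal totals, equal medians, quantile normalization and only the groups compared, and 1 to 2 when libraries were left out. With equal totals the remaining gene was Gpx3, and otherwise Gpx4 where all libraries were kept. No called change of a member reversed. The count of all genes called stayed within 1.5 times, at 2668 to 3218, 3969 to 4774 and 4994 to 5691 when libraries were left out in the 3 comparisons, against 3285, 4805 and 5823. Libraries with the same replicate number deviated together with r of -0.0368 to 0.0722 over genes, so the numbers were not taken to pair samples. With a replicate block the members called were 0, 1 and 1, Gpx3 missing the threshold against control (limma adjusted p = 0.0565), and 2956, 4481 and 5506 genes passed. Among the pathway lists, quantile normalization gave 5 falls of other selenoproteins in each selenite comparison, 8 rises of folding genes against control, and 3 rises and 2 falls of lipid peroxidation genes against control. Equal medians gave 2 rises and 2 falls of folding genes against control, and fitting only the groups compared gave 2 rises and 1 fall of selenocysteine genes there. The cause of these shifts was not tested. Depth limits Gpx2, with at most 3 reads in any library. Gpx7 and Gpx8 had at most 66 reads, and the spread of Gpx7 between control libraries exceeded its counting error.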
